A study of Mus musculus with 8 samples.

Results

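The Toll-like receptors are a family of membrane proteins with which cells recognise microbial molecules, and 10 members were examined here: Tlr1, Tlr2, Tlr3, Tlr4, Tlr5, Tlr6, Tlr7, Tlr8, Tlr9 and Tlr13. Members were chosen by gene symbol, through the RefSeq identifier of each row of the expression table, and 9 of the 10 had a row among 24625 in all. Each of the 9 had 1 row. Tlr5, the flagellin receptor, had no matched row and is not analysed here. The samples were neutrophils from the lungs of wild-type (WT) mice aged 6 to 12 weeks by the labels (the methods give a narrower range within it), all bound to anti-Ly6G magnetic beads, 4 after PBS and 4 after Streptococcus pneumoniae (SP). The volume instilled by the trachea into the left lung was 2.3 µl for each g of mouse, and per the study's methods the lungs were collected after 24 h from C57BL/6J colonies matched for age and sex. The comparison asks how gene expression of lung neutrophils differs during pneumococcal pneumonia. Each sample was read on 1 array and came from a mouse of its own, as the legends of the study state and the labels do not. The study judged purity by microscopy only in samples from mice with pneumonia, and reports few other cells there. By its account these mostly looked like alveolar macrophages, and rarely like eosinophils. The study also reports high levels of Ly6G mRNA in all samples.

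Toll-like receptors fall into those of the cell surface, which bind lipids and proteins of the microbial wall, and those of the endosome, which bind nucleic acids released from engulfed microbes. Most signal through the adaptor MyD88, which brings IRAK kinases and the ubiquitin ligase TRAF6 together and ends in NF-κB and AP-1 activity. TLR3 uses the adaptor TRIF, which leads by way of TBK1 to interferon regulatory factors, and TLR4 uses both. The endosomal receptors depend on the chaperone UNC93B1 to leave the endoplasmic reticulum, and several are cut by proteases before they signal. In neutrophils these receptors are known for priming the oxidative burst, degranulation and cytokine release.

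The promoters of the member that rose most, of a surface member that rose and of the member that fell are shown first, because the members differed in direction. Each is the stretch of 250 bases that ends just before the start of transcription, taken from RefSeq on GRCm38.p6 and written in the direction of the gene. The Tlr9 promoter lies on the plus strand at chr9:106222348-106222597, the Tlr2 promoter on the minus strand at chr3:83841609-83841858 and the Tlr8 promoter on the minus strand at chrX:167264330-167264579. Capitals mark matches, on either strand, to an NF-κB consensus, to the interferon regulatory factor motif AANNGAAA, to the STAT motif TTCNNNGAA, to the AP-1 motif TGANTCA or to the PU.1 motif GAGGAAG.
Tlr9: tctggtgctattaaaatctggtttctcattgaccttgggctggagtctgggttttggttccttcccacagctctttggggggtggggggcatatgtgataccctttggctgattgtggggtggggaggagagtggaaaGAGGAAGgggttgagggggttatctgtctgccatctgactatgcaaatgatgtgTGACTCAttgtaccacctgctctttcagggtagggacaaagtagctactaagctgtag
Tlr2: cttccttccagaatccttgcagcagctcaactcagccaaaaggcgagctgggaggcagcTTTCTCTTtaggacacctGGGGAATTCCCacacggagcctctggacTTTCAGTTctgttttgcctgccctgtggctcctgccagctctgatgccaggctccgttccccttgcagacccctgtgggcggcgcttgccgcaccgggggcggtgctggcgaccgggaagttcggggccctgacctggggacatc
Tlr8: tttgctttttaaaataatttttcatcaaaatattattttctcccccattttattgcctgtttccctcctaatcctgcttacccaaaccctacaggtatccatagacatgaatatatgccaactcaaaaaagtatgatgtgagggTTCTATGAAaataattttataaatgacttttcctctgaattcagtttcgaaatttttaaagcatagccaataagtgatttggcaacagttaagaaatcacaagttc

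The Tlr9 promoter held 1 match to the AP-1 motif and 1 to the PU.1 motif, and none to the NF-κB consensus. The Tlr2 promoter held 1 stretch matching the NF-κB consensus, read from both strands, and 2 matches to the interferon regulatory factor motif. The Tlr8 promoter held 1 match to the STAT motif. Among all 32851 promoters of the same length, 7.25% held the NF-κB consensus, 21.3% AANNGAAA, 7.02% TTCNNNGAA, 6.75% TGANTCA and 10.6% GAGGAAG. Promoters were given for 8 members, Tlr5 among them, in 10 windows, since Tlr1 and Tlr6 had more than 1. Counting a member if any of its windows matched, which differs from the shares per promoter above, 2 held the NF-κB consensus, 4 AANNGAAA, 2 TTCNNNGAA, 1 TGANTCA and 3 GAGGAAG. The other member with an NF-κB match was Tlr3. Tlr4 and Tlr7 are named only. A match is a run of letters in this window and was not compared with binding data.

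Across the whole table, samples of 1 group correlated at 0.970 to 0.997 and samples of different groups at 0.857 to 0.947. PBS replicate 2 and SP replicate 3 stood apart, with the lowest mean correlation with the other samples of their group (0.984 against 0.989 to 0.991 in PBS, and 0.973 against 0.983 to 0.988 in SP). Where the call of a member or named pathway gene changed without 1 of them, that result is also given.

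In SP, 5 of the 9 measured Toll-like receptors rose at least 2-fold (Tlr2, Tlr4, Tlr6, Tlr7 and Tlr9) and Tlr8 fell at least 2-fold. The largest change was in Tlr9, which was 26.0-fold higher. Tlr3 rose by less than 2-fold, and Tlr1 and Tlr13 did not pass the test. The test was limma on log2 signals, where 1 unit is 2-fold, and a call needed a Benjamini-Hochberg adjusted p of at most 0.05 over all rows. By that threshold 6 members rose, 1 fell and 2 were not called, while 44.1% of all rows were called in either direction. At 2-fold, 6.37% of all rows were higher in SP and 11.3% were lower. All SP samples lay outside the range of the PBS samples for 7 members, against 49.0% of all rows. The median difference of the 9 members was 1.17 log2 units, and that of all rows was 0.10.

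**Figure D1:**
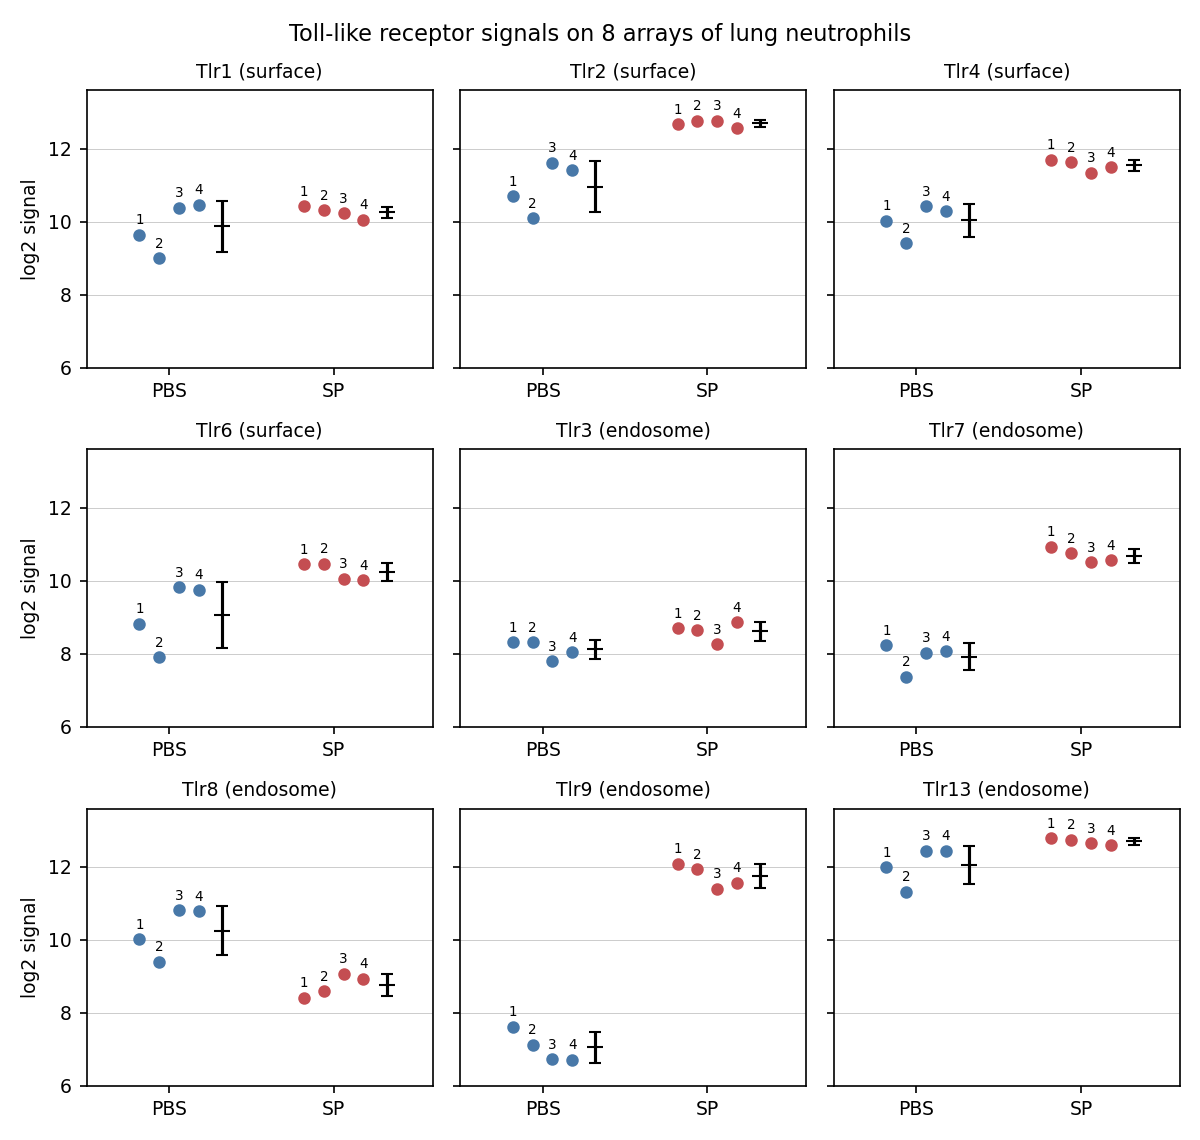
Log2 signal of each measured Toll-like receptor gene (vertical axis) in the 4 PBS and 4 SP samples, with points numbered by replicate and bars for the mean ± SD. The SP points of Tlr2, Tlr4, Tlr6, Tlr7, Tlr9 and Tlr13 lie above all PBS points, those of Tlr8 lie below them, and PBS replicate 2 is the lowest point of its group for 7 members.

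Among the surface receptors, Tlr2 encodes the subunit shared by the lipoprotein receptors and is a main sensor of Gram-positive bacteria. Its log2 signal was 10.70, 10.09, 11.62 and 11.42 in the PBS samples and 12.68, 12.78, 12.78 and 12.56 in the SP samples. The groups did not overlap, and the SP samples lay within 0.21 of each other while the PBS samples spread over 1.53. Tlr2 rose by 1.74 log2 units (95% interval 1.04 to 2.44), or 3.34-fold, with an adjusted p of 0.0023 in limma.

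Tlr6 and Tlr1 encode the partners with which TLR2 forms receptors for diacylated and triacylated lipopeptides. Tlr6 was at 8.82, 7.90, 9.82 and 9.76 in PBS and at 10.46, 10.46, 10.05 and 10.01 in SP. All SP samples were above all PBS samples, but PBS replicate 3 came within 0.19 of the lowest SP sample. The difference was 1.17 (0.25 to 2.09), or 2.25-fold, with an adjusted p of 0.0447. This call was close to the threshold and was not made at 2-fold under 11 of 16 alternatives. Among these was the one-way test of the study's methods (adjusted p = 0.0883). Without PBS replicate 2 the difference was 0.78 (adjusted p = 0.0511), and without PBS replicate 1 or any 1 of the 4 SP samples the adjusted p lay between 0.0594 and 0.1057.

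Tlr1 was at 9.64, 8.995, 10.39 and 10.47 in PBS and at 10.43, 10.31, 10.23 and 10.06 in SP. The SP samples fell inside the PBS range. The difference was 0.39 (-0.32 to 1.09) and did not pass the test (adjusted p = 0.311). Without PBS replicate 2 it was 0.09 (adjusted p = 0.722). Tlr1 and Tlr6 are neighbours on chromosome 5 with no annotated gene between them, and the difference between their changes was tested. Within a sample, the Tlr1 signal minus the Tlr6 signal averaged 0.80 ± 0.22 (SD, n = 4) in PBS and 0.01 ± 0.14 (SD, n = 4) in SP. The change was -0.79, and an exact two-sided permutation test over 70 arrangements gave p = 0.0286, the smallest it can give. The pair was chosen with earlier results of these data known. Both probe sets have their own brightness, so only the change of this difference is read and not its sign in a group.

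Tlr4 encodes the receptor for lipopolysaccharide of Gram-negative bacteria. It was at 10.03, 9.41, 10.43 and 10.29 in PBS and at 11.70, 11.64, 11.35 and 11.50 in SP. The groups were separate, with the lowest SP sample 0.92 above the highest PBS sample. Tlr4 rose by 1.51 (1.03 to 1.99), or 2.84-fold (adjusted p = 0.00072).

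Among the endosomal receptors, Tlr9 encodes the sensor of unmethylated CpG DNA. It was at 7.62, 7.13, 6.73 and 6.72 in PBS and at 12.09, 11.93, 11.40 and 11.57 in SP. Every SP sample was at least 3.78 log2 units above every PBS sample. Tlr9 rose by 4.70 (4.17 to 5.24), or 26.0-fold (adjusted p = 5.4e-06), the largest difference among the members. Across the 16 alternatives the difference was between 4.59 and 4.98. PBS replicate 1 had the highest Tlr9 signal of its group and also the highest means of B cell (8.15), alveolar macrophage (9.26), monocyte (8.81), dendritic cell (6.59) and eosinophil and mast cell (5.60) markers. The part of these cells in its Tlr9 signal was not tested.

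Tlr7 and Tlr8 encode related receptors for RNA and lie side by side on the X chromosome, with no annotated gene between them. Tlr7 was at 8.23, 7.37, 8.03 and 8.06 in PBS and at 10.93, 10.75, 10.51 and 10.56 in SP. The groups were far apart, and Tlr7 rose by 2.77 (2.33 to 3.20), or 6.80-fold (adjusted p = 2.1e-05).

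Tlr8 moved the other way. It was at 10.01, 9.40, 10.81 and 10.78 in PBS and at 8.41, 8.60, 9.07 and 8.93 in SP. Every SP sample was below every PBS sample, although PBS replicate 2 came within 0.32 of the highest SP sample. Tlr8 fell by 1.50 (95% interval of the difference -2.23 to -0.76) and was 2.82-fold lower in SP (adjusted p = 0.0063), the only member to fall. Within a sample, the Tlr7 signal minus the Tlr8 signal averaged -2.33 ± 0.50 (SD, n = 4) in PBS and 1.94 ± 0.49 (SD, n = 4) in SP. The change was 4.26, and a scaling common to all genes of a sample leaves it as it is. Because the groups of each gene were already separate, in opposite directions, this difference had to separate too, and the exact permutation p of 0.0286, the smallest possible over 70 arrangements, adds nothing to the results of both genes.

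Tlr3 encodes the receptor for viral duplex RNA. It was at 8.32, 8.31, 7.80 and 8.04 in PBS and at 8.70, 8.64, 8.26 and 8.87 in SP. SP replicate 3 lay inside the PBS range and the other SP samples above it. Tlr3 rose by 0.50 (0.13 to 0.88), or 1.42-fold (adjusted p = 0.0370). The call was lost under 6 of 16 alternatives. Among them was the one-way test of the study's methods (adjusted p = 0.0668). The other 5 left out PBS replicate 3 or 4 or SP replicate 1, 2 or 4 (adjusted p between 0.0734 and 0.0868 in limma). Without SP replicate 3 the difference was 0.62 (adjusted p = 0.0106).

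Tlr13 encodes a mouse receptor for bacterial ribosomal RNA. It was at 11.99, 11.32, 12.45 and 12.45 in PBS and at 12.79, 12.75, 12.66 and 12.60 in SP. The SP samples were all above the PBS samples, by as little as 0.15. The difference of 0.65 (0.11 to 1.19), or 1.57-fold, just missed the threshold (adjusted p = 0.0541). It passed under 6 of 16 alternatives. Without PBS replicate 2 the difference shrank to 0.40 (adjusted p = 0.0470), and without PBS replicate 3 or 4 it was 0.78 in both cases (adjusted p = 0.0375 and 0.0402).

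**Figure D2:**
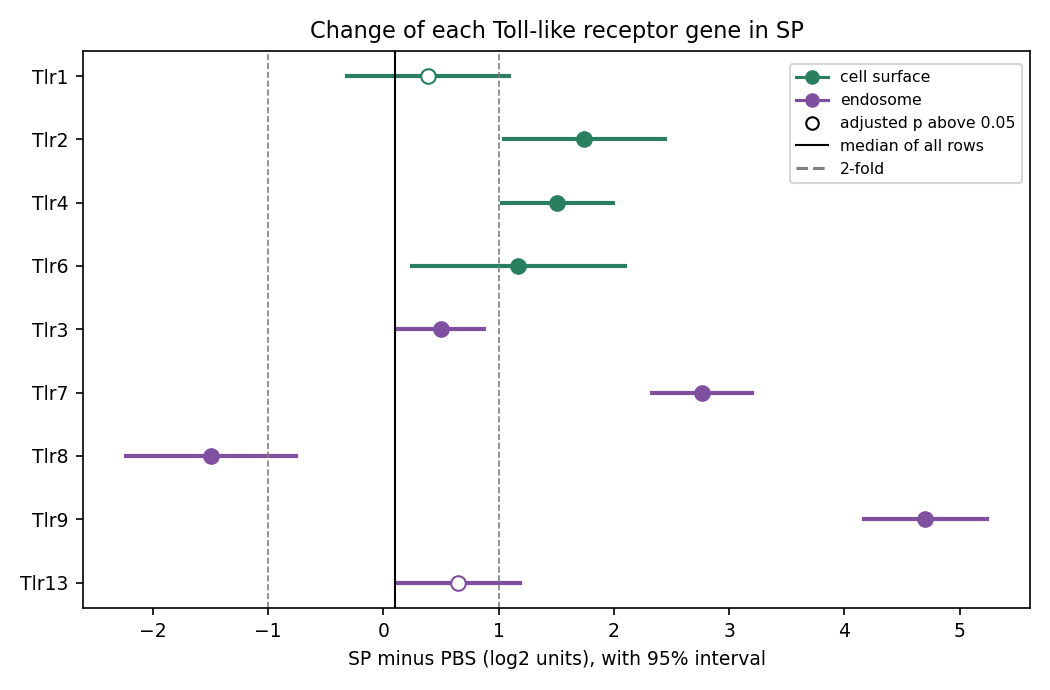
Difference in log2 signal between SP and PBS samples for each measured Toll-like receptor gene (points) with its 95% interval (lines), 4 samples per group; open points did not pass the limma test. The intervals of Tlr2, Tlr4, Tlr7 and Tlr9 lie wholly above a 2-fold rise, that of Tlr8 lies below 0, that of Tlr1 spans the median of all rows, and those of Tlr3 and Tlr13 begin just above it.

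By location, 3 of the 4 measured surface receptors rose at least 2-fold and 1 was not called. Of the 5 endosomal receptors 2 rose at least 2-fold, 1 rose by less, 1 fell and 1 was not called. The median difference was 1.34 for the surface receptors and 0.65 for the endosomal ones. The endosomal group held both ends of the range, from Tlr8 at -1.50 to Tlr9 at 4.70.

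The members also shared a pattern inside the PBS group. PBS replicate 2 had the lowest signal of its group for 7 of 9 members (77.8%), against 43 of 72 genes that serve these receptors (59.7%) and 36.3% of all rows, and the exceptions were Tlr3 and Tlr9. For these 7 members it lay between 0.74 (Tlr7) and 1.57 (Tlr6) log2 units below the mean of the other PBS samples. The PBS samples covered a wider range than the SP samples for 8 of 9 members, against 34.1% of all rows, and Tlr3 was the exception. In the same sample the mean of the epithelial markers (12.18) and of the endothelial markers (11.22) was the highest of the PBS group, while that of the neutrophil markers (11.54 against 11.71 to 11.90) and that of the monocyte and interstitial macrophage markers (7.94 against 8.41 to 8.81) were the lowest. The part of these cells in the levels of the members was not tested. Without PBS replicate 2, Tlr2 was still higher by 1.45, Tlr4 by 1.30, Tlr7 by 2.58 and Tlr9 by 4.73, and the difference of Tlr8 was -1.78, each called at 2-fold.

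**Figure D3:**
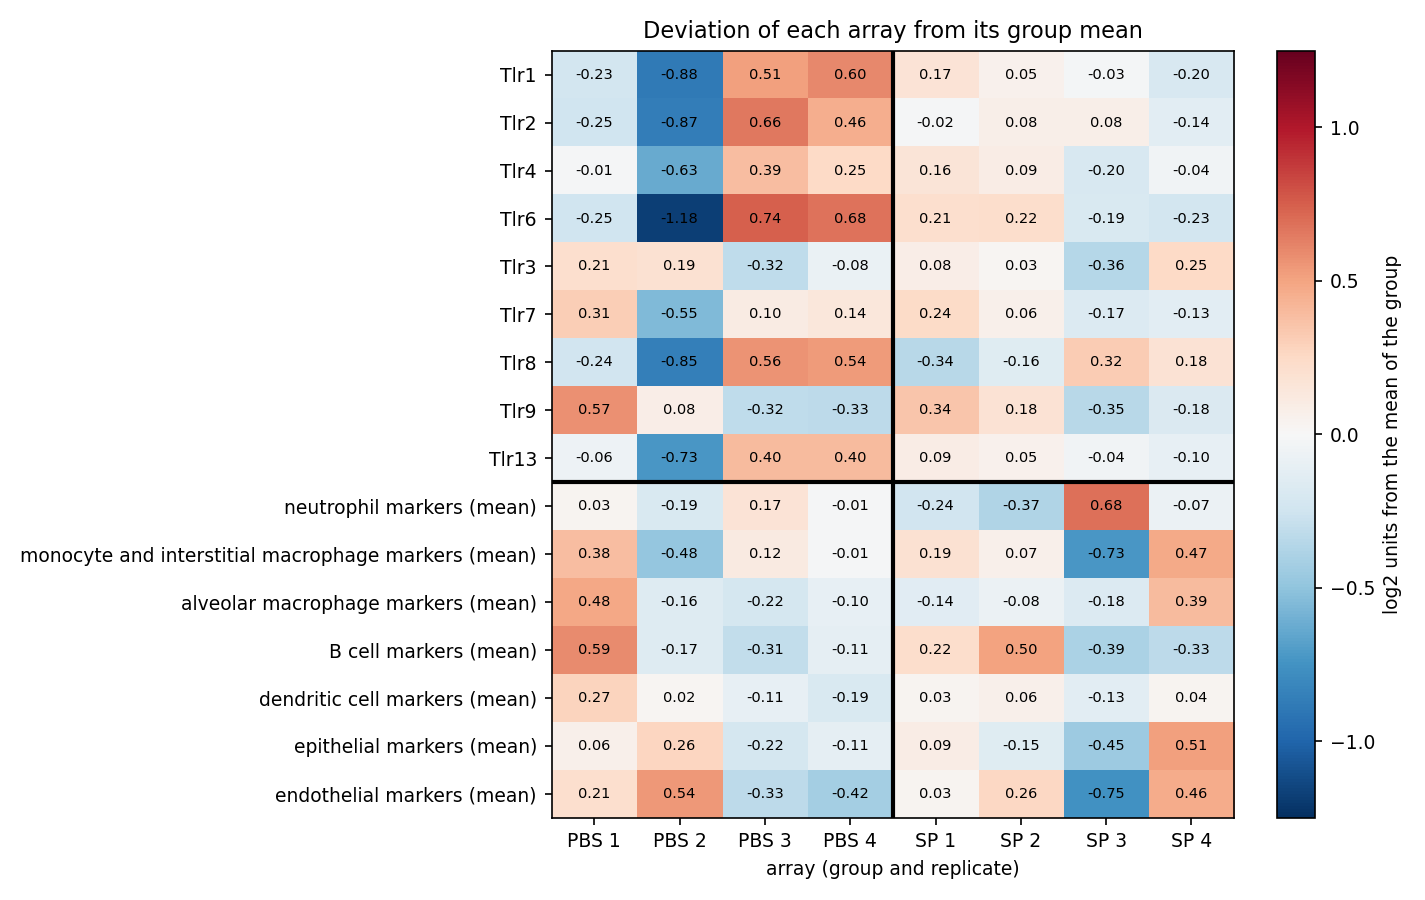
Deviation of each sample (columns) from the mean of its own group, in log2 units, for the measured Toll-like receptor genes (upper rows) and for the mean of each list of cell type markers (lower rows). PBS replicate 2 is low for 7 receptors and high for epithelial and endothelial markers. SP replicate 3 is high for neutrophil markers and is the lowest SP sample for every other marker list shown.

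Beads retain some other cells, and in bulk samples fewer cells of a type and less RNA per cell cannot be told apart. The counts of markers that follow are at the adjusted p, which 44.1% of all rows passed. Of 12 measured neutrophil markers, 1 was higher in SP and 3 were lower, none by 2-fold, and their mean was 11.54 to 11.90 in PBS and 11.18 to 12.24 in SP. Ly6g, the bead target, had no matched row. B cells are known for Tlr9 and Tlr7, and 11 of 12 B cell markers were lower in SP, with a mean of 7.26 to 8.15 in PBS and 5.93 to 6.83 in SP, while both receptors rose. Of 12 dendritic cell markers 3 were higher and 3 lower, with means of 6.12 to 6.59 in PBS and 6.12 to 6.32 in SP. Among the genes of this list chosen for plasmacytoid dendritic cells, Siglech stayed between 5.10 and 5.44 in all samples, below the median of every array. Bst2 rose 6.52-fold (adjusted p = 3.7e-06 in limma), and Tcf4 differed by -0.36 and was not called (adjusted p = 0.145). Of 11 markers of monocytes and interstitial macrophages, cells that also carry these receptors, 6 were higher in SP and none lower, with means of 7.94 to 8.81 in PBS and 8.49 to 9.69 in SP. Of 11 alveolar macrophage markers 8 were lower and 1 higher, with means of 8.56 to 9.26 in PBS and 7.30 to 7.87 in SP. All 10 epithelial markers were lower in SP (11.69 to 12.18 in PBS, 9.85 to 10.82 in SP), as were 9 of 12 endothelial ones (10.26 to 11.22 in PBS, 8.70 to 9.91 in SP). Of 11 eosinophil and mast cell markers 3 were higher and 1 lower, with means of 5.17 to 5.60 in PBS and 5.54 to 5.73 in SP. The part of these cells in the differences of the receptors was not tested. In SP replicate 3 the mean of the neutrophil markers was the highest in SP (12.24). The means of monocyte (8.49), alveolar macrophage (7.30), dendritic cell (6.12), B cell (5.93), epithelial (9.85) and endothelial (8.70) markers were the lowest in SP. That of the eosinophil and mast cell markers (5.65) was not the lowest. Tlr3 (8.26), Tlr4 (11.35), Tlr7 (10.51) and Tlr9 (11.40) were also lowest of the SP samples there, Tlr2 (12.78) and Tlr8 (9.07) were highest, and Tlr1, Tlr6 and Tlr13 lay between the others.

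The proteins that serve Toll-like receptors were read from 6 lists of 76 genes, of which 72 had a row. In SP, 24 rose at least 2-fold and 1 fell at least 2-fold, and at the adjusted p alone 35 rose, 9 fell and 28 were not called. Over all rows the shares given above were 6.37% higher and 11.3% lower at 2-fold and 44.1% called at the adjusted p, and the counts of each list stand against these. Their median difference was 0.43, against 0.10 over all rows. The count of genes that fell at 2-fold was small and moved with the samples used, from 1 without SP replicate 1 to 2 without any 1 of the other samples, the additional gene being Pglyrp1 or Sigirr.

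Among 16 adaptors and kinases, 10 rose, 6 of them at least 2-fold, and 1 fell. Ikbke, a kinase of interferon regulatory factors, went from 7.28 to 7.58 in PBS to 12.31 to 12.45 in SP, a rise of 4.95 ± 0.08 (SE) or 30.9-fold (adjusted p = 7.2e-08). Its relative Tbk1 rose 5.82-fold (adjusted p = 4.3e-06). Myd88 was at 11.73 to 12.43 in PBS and 12.57 to 12.90 in SP and rose 1.46-fold (adjusted p = 0.0261). The call was lost without PBS replicate 1 (0.0682), SP replicate 1 (0.0624) or SP replicate 3 (0.0558). It was also lost under the one-way test of the study's methods (adjusted p = 0.0518). Tirap, the bridge between MyD88 and TLR2 or TLR4, differed by -0.29 (-0.92 to 0.34, adjusted p = 0.382). Ticam1, which encodes TRIF, differed by 0.23 (-0.04 to 0.50, adjusted p = 0.142), and the adjusted p without SP replicate 3 was 0.0313. Ticam2, the bridge between TRIF and TLR4, rose 2.24-fold (adjusted p = 0.0142), with SP replicate 3 at 6.07 and the other SP samples at 7.21 to 7.24. Its difference was 1.16 log2 units with all samples and 0.98 without PBS replicate 2 (adjusted p = 0.0331), which is under 2-fold. Without SP replicate 3 it was 1.45 (adjusted p = 0.00092).

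The list of ligand delivery proteins and co-receptors was mixed, with 2 of 11 genes higher and 5 lower. Ly96 encodes MD-2, the part of the TLR4 complex that holds lipopolysaccharide, and rose 2.00-fold (adjusted p = 0.0182). That rise sat on the 2-fold limit, and it was called at 2-fold under 9 of 16 alternatives. Without PBS replicate 2 the difference was 0.72 (adjusted p = 0.0088). Cd14, which passes lipopolysaccharide to TLR4, was at 11.47 to 12.97 in PBS and 13.04 to 13.50 in SP and did not pass the test (0.79, 0.08 to 1.50, adjusted p = 0.0684), and the difference was 0.98 without PBS replicate 3 (adjusted p = 0.0400) and 0.48 without PBS replicate 2 (adjusted p = 0.0816). Cd36, a scavenger receptor that aids TLR2 with TLR6, was the only gene of the 6 lists to fall at 2-fold. It went from 12.12 to 12.87 in PBS to 9.94 to 11.16 in SP and was 3.59-fold lower (adjusted p = 0.00087). CD36 is also abundant on endothelial cells and macrophages. Most endothelial and alveolar macrophage markers were lower in SP as given above, while 6 of 11 monocyte and interstitial macrophage markers were higher. The part of these cells in the fall of Cd36 was not tested. Cd180, a receptor-like partner of lymphocytes and myeloid cells, differed by 1.13 (-0.19 to 2.44, adjusted p = 0.135). Its SP replicate 3 was at 8.13, below all PBS samples (8.31 to 9.48), and without it the difference was 1.74 (adjusted p = 0.0019).

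Of 11 chaperone and trafficking genes 3 rose, 1 fell and none reached 2-fold, so that the called share was below that of all rows. Unc93b1, which all nucleic acid sensors of the family need, was at 10.22 to 10.96 in PBS and 11.35 to 11.83 in SP and rose 1.95-fold (adjusted p = 0.0032). Slc15a4, an endosomal transporter tied to TLR7 and TLR9 signalling, differed by 0.72 (0.08 to 1.36, adjusted p = 0.0661), with SP replicate 3 (8.74) below all PBS samples, and by 1.01 without that sample (adjusted p = 0.0012). Of 10 endosomal proteases and nucleases 3 rose, all at least 2-fold, and none fell. Ctss, the lysosomal protease cathepsin S, rose 4.26-fold (adjusted p = 5.9e-05). Ctsb, cathepsin B, rose 2.28-fold (adjusted p = 5.5e-05).

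Downstream, 8 of 11 transcription factors rose, 7 of them at least 2-fold, and 1 fell. Relb, the NF-κB subunit of the non-canonical pathway, rose 8.53-fold (adjusted p = 1.9e-05). Irf7, which drives type I interferon after TLR7 or TLR9 engagement, rose 5.21-fold (adjusted p = 0.0010). Of 13 negative regulators 9 rose, 7 of them at least 2-fold, and 1 fell. Socs1, which blocks cytokine signalling and is induced by it, rose 25.5-fold (adjusted p = 4.8e-06). Tnip1, a partner of the deubiquitinase A20, rose 12.1-fold (adjusted p = 4.1e-06). The list medians were 1.34 for transcription factors, 1.03 for negative regulators, 0.54 for adaptors and kinases, 0.20 for chaperones, -0.02 for proteases and -0.06 for ligand delivery.

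**Figure D4:**
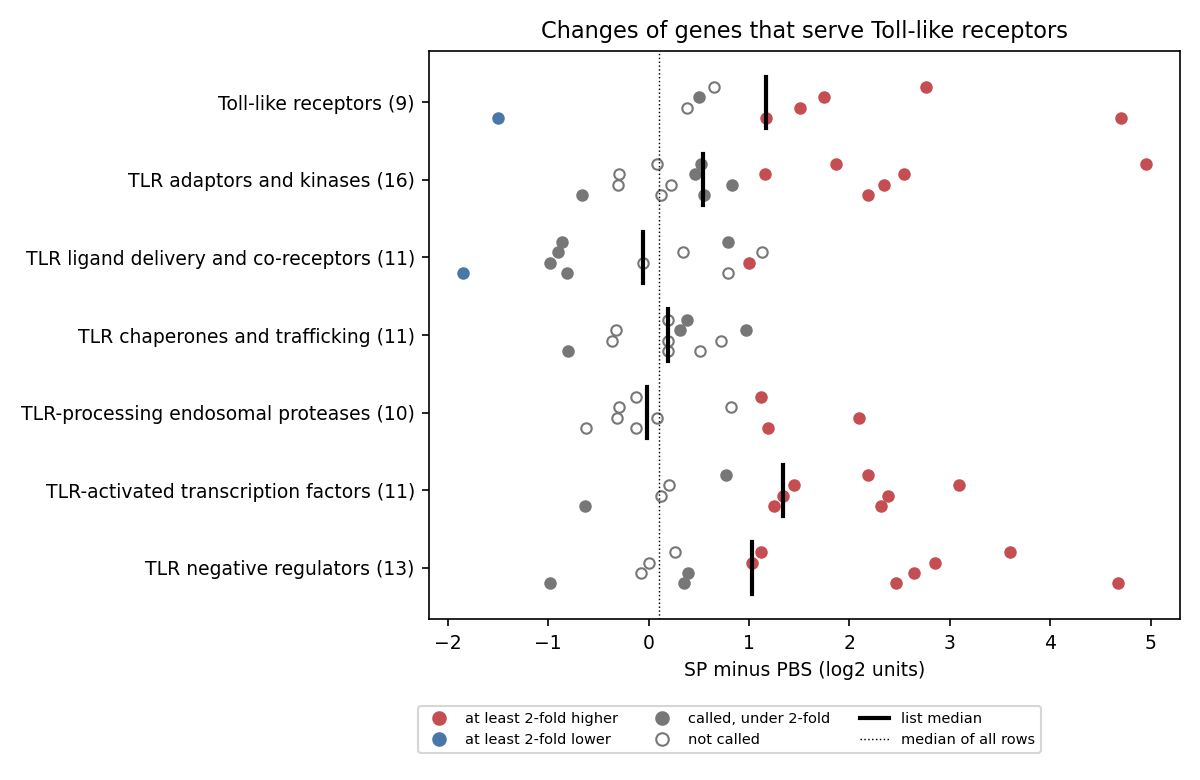
Difference in log2 signal between SP and PBS samples for each measured gene of the Toll-like receptor family and of the 6 lists that serve it (1 point per gene, number of genes in brackets); filled points passed the test, and thick bars are list medians. The list medians lie between -0.06 and 1.34, and the genes at least 2-fold lower are Tlr8 and Cd36.

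The rows whose signal followed Tlr9 most closely over the 8 samples were Ggta1 (r = 0.9992), Dock10 (r = 0.9987) and Nlrc5 (r = 0.998). Nlrc5, a regulator of MHC class I genes, averaged 7.02 ± 0.50 (SD, n = 4) in the PBS samples and 11.49 ± 0.27 (SD, n = 4) in the SP samples. Those that followed Tlr8 most closely were Capn1 (r = 0.9993), Mdm1 (r = 0.9972) and Pi16 (r = 0.9954). Capn1, a calcium-dependent protease, averaged 11.46 ± 0.40 (SD, n = 4) and 10.59 ± 0.16 (SD, n = 4), respectively. The same 2 groups stand behind every one of these values, and 845 rows reached an r of at least 0.95 with Tlr9 and 171 with Tlr8, so the likeness is a description only.

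The array medians were 6.06 to 6.20 in PBS and 5.78 to 5.91 in SP, and bringing them to 1 value moves the median of all rows from 0.10 to 0.38 and the calls at 2-fold from 1568 higher and 2773 lower to 2375 higher and 1896 lower. Under that scaling the members still counted 5 higher and 1 lower, with Tlr9 at 4.98 and Tlr8 at -1.21. With both samples that stood apart left out, 4 members were higher and 1 lower at 2-fold, and Tlr6 (0.84, adjusted p = 0.0517) was the one not called.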

How the data were processed

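Total RNA of 8 samples (4 PBS, 4 SP, grouped by their titles) was hybridised to Affymetrix Mouse Gene 1.1 ST arrays. The deposited values are log2 intensities that, per the study's methods and processing notes, the authors made by robust multi-array averaging (Affymetrix Expression Console, RMA and Partek), with correction for GC content, quantile normalization and median polish over probes mapped to genes. Such values are relative within an array, and no depth applies; 4 arrays per group limit the precision. All columns were used.

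RefSeq identifiers were matched without versions to a GRCm38.p6 gene table, which named 19915 of 24625 rows (80.9%). No build is attached to the values. SP was compared with PBS by limma 3.58.1 (R 4.3.3) without covariates, with Benjamini-Hochberg adjustment over all rows. Calls needed an adjusted p of at most 0.05 and, where stated, at least 2-fold. The methods' one-way test was run as an alternative, as were array weights, a robust prior with trend, centred arrays, another quantile normalization, omission of dim rows, a replicate block and omission of each sample. The omission of both samples that stood apart was chosen after seeing the data. limma was tested on simulated data. Figures were made with Python 3.11.15.

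The members and lists were chosen with earlier results of these data known. Genes named were all members, the 2 largest rises and falls of each pathway list that were called at 2-fold without overlap, 11 fixed adaptors, co-receptors, chaperones and factors, and the 3 rows most like Tlr9 and Tlr8. Pglyrp1, Sigirr, Siglech, Bst2, Tcf4 and Ly6g were named outside this rule, after their values were seen.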

Additional observations from a re-analysis of the deposited data

Results flagged for a closer look

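Over the members and named pathway genes, 54 groups of 4 samples were examined for a sample set far from the rest by its gap divided by the range of the group, and 4 were found. Chance gives about 1 in 20. No Toll-like receptor was among them. Socs1 in PBS replicate 2 was at 5.51 against 6.34 to 6.44 in the other PBS samples (gap over range 0.901). Ticam2 in PBS replicate 2 was at 5.22 against 5.92 to 6.02 (0.868). Ticam2 in SP replicate 3 was at 6.07 against 7.21 to 7.24 (0.972). Cd180 in SP replicate 3 was at 8.13 against 10.33 to 10.74 (0.841).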

How the results depend on the processing

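Each result was recomputed under 16 alternatives. Of 144 recomputed differences of members, 122 kept their direction and side of the threshold, 16 lost the call (10 of Tlr6 and 6 of Tlr3), 6 gained it (all Tlr13) and none reversed. Tlr2, Tlr4, Tlr7, Tlr8 and Tlr9 kept the call under all 16. Members at 2-fold numbered 4 or 5 higher and 1 lower throughout. Of 288 recomputed differences of the 18 named pathway genes, 4 lost the call, 22 gained it and none reversed. Pathway genes lower at 2-fold numbered 5 with another quantile normalization, 3 with array weights, 3 with both samples that stood apart left out and 1 to 2 with 1 sample left out, against 1; the first 3 settings brought in Pglyrp1, among others. Over all rows, centred arrays gave 2375 higher and 1896 lower calls and another quantile normalization 1878 and 2198, against 1568 and 2773; the cause of the differences was not tested beyond the shift of the array medians.

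The labels do not say whether equal replicate numbers pair the samples, and the correlations that follow cannot settle it. Correlations of the deviations of same-numbered samples were 0.0156, 0.0304, 0.35 and -0.274, and only the samples numbered 3 correlated best with their own number. With a replicate block, 4 members were higher and 1 lower at 2-fold, Tlr6 was not called (adjusted p = 0.0797) and Cd14 was (0.0385). For the within-sample differences the replicate block left the values at 4.26 for Tlr7 minus Tlr8 and -0.79 for Tlr1 minus Tlr6. An exact sign-flip permutation test of the mean paired difference gave p = 0.125 for each. That is the smallest p that 4 pairs allow, so it cannot pass the threshold. Signals near the top of the array may be compressed, which was not tested.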

Other observations

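Tlr11 and Tlr12, which recognise profilin of protozoa and are not members of the set described above, were at 4.71 to 4.73 and 4.65 to 4.75 in PBS and at 5.02 to 5.10 and 4.94 to 5.37 in SP. The differences were 0.36 and 0.37 log2 units (adjusted p = 0.0021 and 0.0228 in limma), both under 2-fold, while every array had a median above these signals.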
